A study of Mus musculus with 6 samples.

Results

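The genes described here encode the receptor for ciliary neurotrophic factor (CNTF), the kinases and STAT factors it signals through, and Socs proteins, which dampen such signals. They were chosen by name, with no threshold on their values: Cntfr, Lifr, Il6st, Jak1, Jak2, Stat3, Stat5b, Socs2, Socs3 and Socs7. Of these 10 names, 9 were measured, out of 10361 gene names in all, and Socs3 was not analysed here. Poly-A RNA was sequenced from mouse retinal ganglion cells (RGCs), which send the axons of the optic nerve to the brain, in 6 libraries of 3 groups with 2 libraries each. All mice were wild type of strain C57/6NCrl. Adult control RGCs carried AAV2, a gene-delivery virus, with mCherry and a scramble shRNA mimic. Adult miR-1247 RGCs carried AAV2 encoding a mimic of miR-1247-5p, a microRNA, and E18 RGCs, from embryonic day 18, were untreated. Each adult condition came from 10 pooled retinas, and about 5000 cells were taken by Thy1 immunopanning and sorting for mCherry. About 50000 E18 cells were immunopanned on Thy1 and not sorted. Age, vector, sorting and cell number therefore cannot be told apart between E18 and adult libraries. The labels do not say that the libraries of a group came from separate animals, so p-values here measure only a spread between libraries that may be technical.

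CNTF binds CNTFRα, the product of Cntfr, which is tethered to the membrane by a lipid anchor and has no signalling domain of its own. The complex recruits the transmembrane chains LIFR and gp130, which the genes Lifr and Il6st encode. The kinases JAK1 and JAK2, bound to these chains, phosphorylate STAT3 and to a lesser degree STAT5, and the phosphorylated STAT dimers enter the nucleus and switch on genes, some Socs genes among them. SOCS proteins bind activated receptors or kinases and direct them to a ubiquitin ligase, which closes a negative feedback loop. In the retina, CNTF is known as a survival and axon growth factor for RGCs, and loss of Socs3 in RGCs is known to raise their capacity to regrow axons.

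The microRNA given to adult RGCs is shown because its seed, bases 2 to 8, sets which transcripts it can pair with. The RefSeq mature sequence lies at chr12:110278094-110278115 on the minus strand of GRCm38.p6 and is printed with the seed in capitals. Below it is the stretch of the Socs7 3′ UTR (chr11:97288592-97288620, plus strand, mm39) that pairs with this seed, with the pairing bases in capitals.
mmu-miR-1247-5p: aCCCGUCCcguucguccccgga
Socs7 site: gctcccaagagGGACGGGcaagagccagg
The letters GGACGGG (pairing with bases 2 to 8) and GACGGGA (bases 2 to 7, then A) were searched on the sense strand of the GENCODE canonical 3′ UTRs. The 2 motifs share the letters GACGGG. Of the 10 genes chosen by name, Socs7 alone held a match, at base 4419 of a 3′ UTR of 5184 bases. A match to bases 2 to 8 occurred in 3.27% of 9793 UTRs of tested genes, and in 8.9% of the 369 whose length was within 10% of that of Socs7. Socs7 had 25.5 and 25.1 FPKM in the miR-1247 libraries against 22.8 and 21.6 in control, so its level there was not below control.

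Levels are in FPKM, numbers of fragments scaled to transcript length and to library size, so they can be compared between genes. Totals of the listed FPKM ran from 339224 to 392238 per library, and the depth in reads is unknown. All 8 RGC markers checked were present. Their summed levels were 2577.2 to 2628.0 FPKM in control, 1622.2 to 1664.3 in miR-1247 and 3272.9 to 3274.5 in E18 libraries. All 8 had lower means in miR-1247 than in control. Between control and E18 they moved in both directions. Thy1, the panning target, had means of 855 FPKM in control and 352 at E18, and Slc17a6 had 122 and 52.8. The other RGC markers had higher means at E18 than in control, such as Sncg with 786 and 1443.2 FPKM. Markers of other cells moved with the groups too. Müller glia and astrocyte markers (5 of 10 measured) summed to 1063.2 to 1409.4 FPKM in control, 1713.0 to 1825.4 in miR-1247 and 167 in both E18 libraries. These markers did not move as one, since Vim had 0.635 to 1.90 FPKM in adult libraries and 44.5 and 41.0 at E18, and Aldoc had means of 521 and 522 FPKM in control and miR-1247. Amacrine markers (4 of 7) summed to 297 to 321, 394 to 434 and 227 to 243 FPKM, rod markers (3 of 6) to 45.6 to 46.8, 24.3 to 26.9 and 5.57 to 6.41, and bipolar markers (3 of 5) to 25.1 to 30.0, 40.4 to 40.9 and 11.3 to 12.7, in the same order. At E18 the amacrine sum was nearly all Pax6 (226 and 239 FPKM), which RGCs also express, while Gad2, Slc6a9 and Npy had means of 0.856, 0.935 and 0.481 FPKM, against 81.8, 30.6 and 28.5 in control. Progenitor markers (2 of 7) were at 18.6 to 19.5, 19.6 to 22.4 and 49.5 to 52.9 FPKM, with Dapl1 at 0 in all adult libraries. The oligodendrocyte marker (1 of 4) was at 24.2 to 24.9 FPKM in control, 35.6 to 41.5 in miR-1247 and 9.15 to 11.5 in E18 libraries. The fibroblast marker (1 of 4) was at 5.91 to 7.21, 12.9 to 14.8 and 19.1 to 20.9 FPKM in the same order. No marker of microglia or endothelial cells was analysed here. Glia express JAK-STAT genes as well, fewer cells of a type and less RNA per cell cannot be told apart in bulk RNA, and the part of these markers in the results was not tested.

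**Figure D1:**
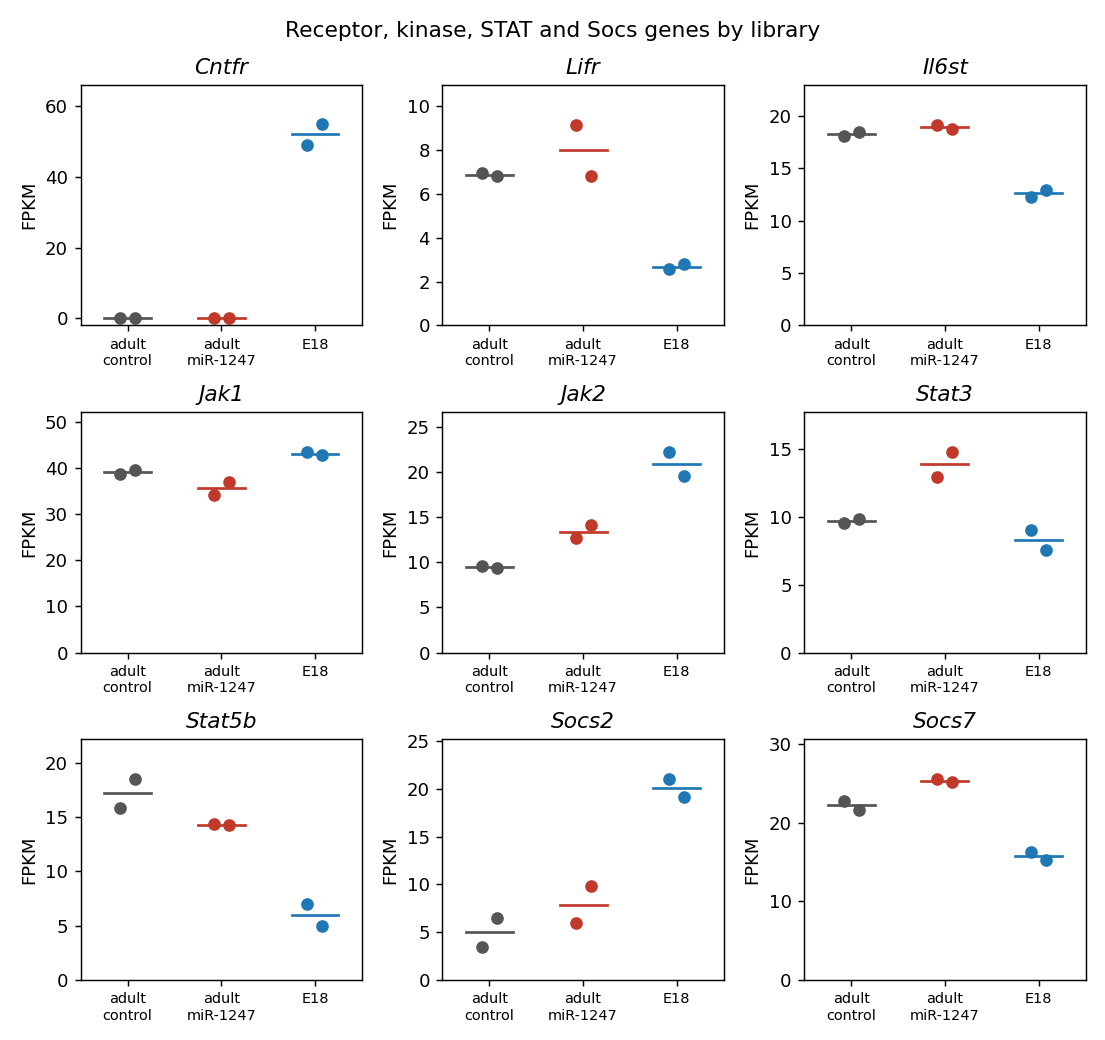
FPKM (linear axes, scaled per gene) of the 9 measured genes in each library, with a bar at the mean of the 2 libraries of a group. Cntfr is listed at 0 in all 4 adult libraries and stands at 49.1 and 55.0 at E18, Jak2 and Socs2 are highest at E18, and Lifr, Il6st, Stat5b and Socs7 are lowest there.

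In adult control RGCs the kinase gene Jak1 had the highest level (39.1 ± 0.585 FPKM, SD, n = 2), followed by Socs7 (22.2 ± 0.800). Il6st (18.2 ± 0.179) and Stat5b (17.2 ± 1.83) came next, and their libraries overlapped. Stat3 (9.70 ± 0.215) and Jak2 (9.51 ± 0.153) were likewise not separated beyond their libraries. Lifr (6.87 ± 0.113) and Socs2 (4.96 ± 2.10) had the lowest levels above 0. Jak1 lay above 80.5% of tested genes in control and Socs2 above 19.9%, so the set ran from well to weakly expressed genes. In miR-1247 libraries the order was Jak1, Socs7 and Il6st, then Stat5b, Stat3 and Jak2, then Lifr and Socs2. There the libraries of Stat3 overlapped with those of Stat5b and of Jak2, both Stat5b libraries were above both Jak2 libraries, and Lifr overlapped with Socs2.

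At E18 the order of the 8 genes with values above 0 in every library differed from that in adults. Cntfr is left out of that comparison, because its adult values of 0 may be failed estimates. Among the E18 values Cntfr led with 52.1 ± 4.12 FPKM, above 85.2% of tested genes, ahead of Jak1 (43.1 ± 0.417). Jak2 (20.9 ± 1.84) and Socs2 (20.1 ± 1.23) followed with overlapping libraries, and both stood above Socs7 (15.7 ± 0.688) and Il6st (12.6 ± 0.456). Stat3 (8.34 ± 1.04), Stat5b (5.98 ± 1.49) and Lifr (2.68 ± 0.170) came last. Among these E18 values the ligand-binding receptor chain thus stood at the top and Lifr, one of its signalling partners, at the bottom. The Cntfr value comes from coordinates shared by 7 entries, described below. An Il11ra1 entry among them is at 0 at E18 too, so the E18 rank of Cntfr is also uncertain.

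Differences between groups were tested with limma on log2(FPKM + 1) over all 9987 genes with a mean of at least 1 FPKM, and a gene was called at a Benjamini-Hochberg adjusted p under 0.05. Log2 differences are given ± standard error and understate changes of weakly expressed genes. The comparisons share libraries, so calls are given for each on its own. Between E18 and adult control, 2 of the 8 genes with values above 0 in every library were higher at E18 (Jak2, Socs2), 4 were lower (Lifr, Il6st, Stat5b, Socs7) and 2 were not called (Jak1, Stat3). Over all tested genes 70.1% were called, 40.2% higher and 29.8% lower, so a count of 6 of 8 is close to the background. The median log2 difference of the 8 genes was −0.34, beside 0.16 for all tested genes. All 8 had E18 and control libraries that did not overlap, as did 85.5% of tested genes. Under a scaling that sets the median ratio between libraries to 1, the median of all genes moved from 0.16 to 0.02, and the same 6 calls stood.

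**Figure D2:**
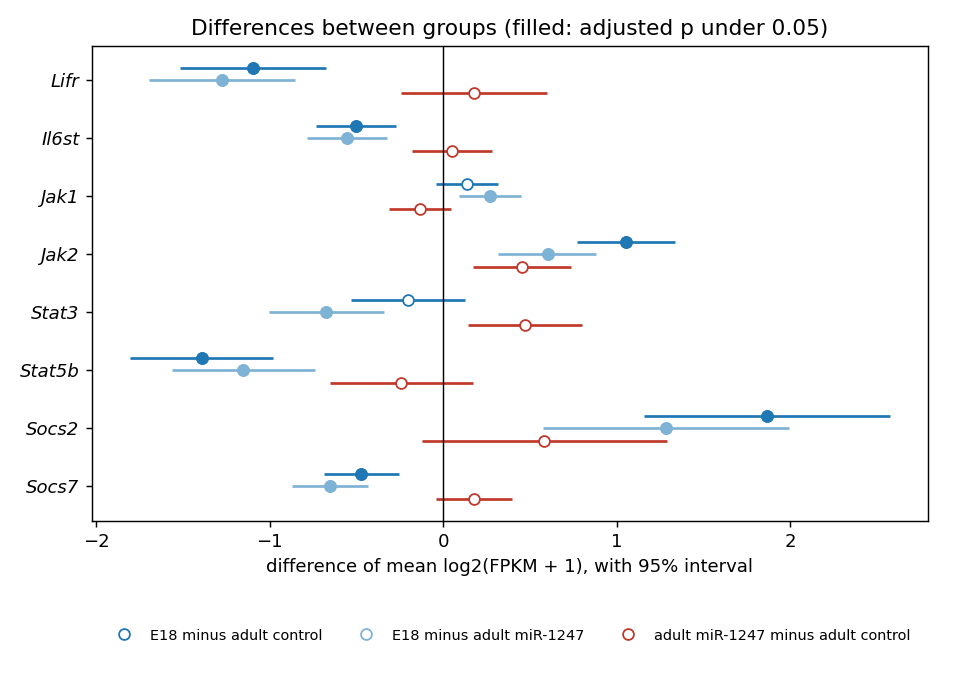
Differences of mean log2(FPKM + 1) for the 8 genes above 0 in every library, with 95% intervals from limma, in the comparisons between the groups. Jak2 and Socs2 lie above 0 and Lifr, Il6st, Stat5b and Socs7 below it in E18 against control, while no gene was called between miR-1247 and control.

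Among the receptor genes, Cntfr had 49.1 and 55.0 FPKM in the E18 libraries and was listed at 0 in all 4 adult libraries. No fold change is given against a group listed at 0. The deposited table places Cntfr at chr4:41646764-41774247 (mm39), a span that reaches beyond the GENCODE gene (minus strand, 41657498 to 41697089). The same coordinates carry 7 entries, and all 7 are at 0 in every adult library. At E18, 6 of the 7 were above 0 in both libraries. They include Dctn3, a dynactin subunit that cells use generally, with 73.9 and 68.6 FPKM, and Ccl27a, a chemokine, with 54.6 and 57.2. Also among them are Rpp25l with 8.90 and 12.8 FPKM and the entry shared by Galt, a galactose enzyme, and Il11ra1 with 14.9 and 13.3. Genes on both sides had values in every library, such as Fam219a before the span (82.6 to 107 FPKM) and Phf24 after it (39.8 to 49.7). The adult 0 thus covers a whole stretch of neighbouring genes, widely used ones included, and an exact 0 in such a table can be a failed estimate. The level of Cntfr in adult RGCs is for that reason not known from these values, and E18 and adult levels of Cntfr were not compared. Of loci averaging 1 FPKM or more, 26 were at 0 in all 4 adult libraries. Of the 26, 7 shared coordinates with another locus at 0 in all 4 adult libraries and above 0 at E18. The 6 entries of the Cntfr span with E18 values are among these 7.

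**Figure D3:**
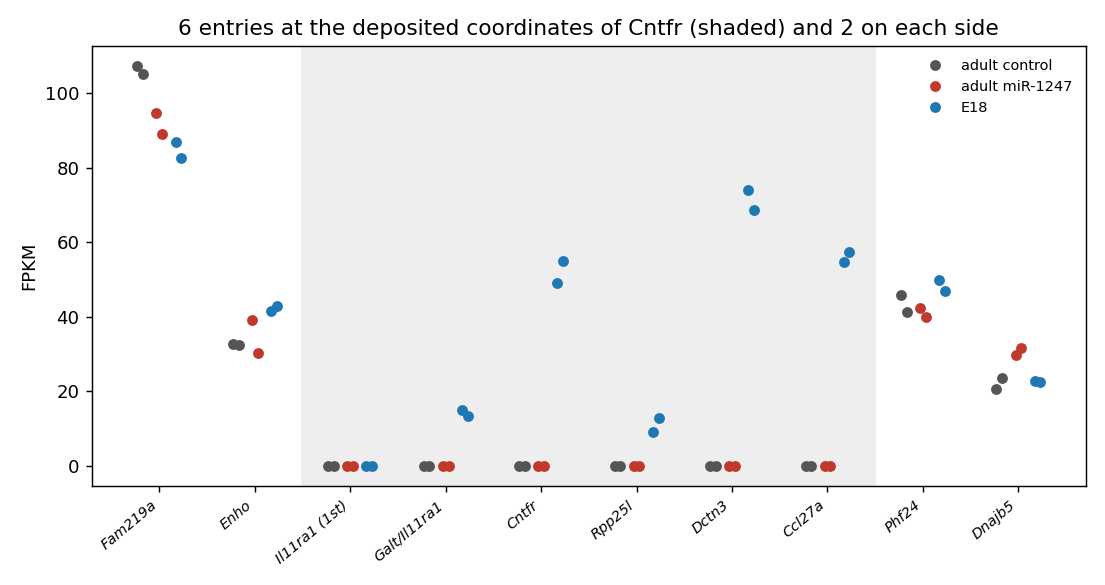
FPKM in each library for 6 of the 7 entries at the coordinates of Cntfr and for 2 genes on either side. The entries drawn at the shared coordinates are at 0 in all 4 adult libraries, and all but the first entry of Il11ra1 are above 0 at E18, whereas the genes before and after them have values in all 6 libraries.

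Lifr, the chain that pairs with gp130, was lower at E18. Its 2 loci in the table summed to 6.95 and 6.79 FPKM in control, 9.13 and 6.82 in miR-1247 and 2.56 and 2.80 in E18 libraries. Every adult library was above both E18 libraries, and the adult groups overlapped. The log2 difference of E18 from control was −1.10 ± 0.175 (limma, adjusted p = 0.00139), with a control mean 2.56 times that of E18. The loci share the same coordinates (chr15:7159040-7227049), and they differed in how far they moved. One, numbered among genes of the plus strand as Lifr is, had 3.37 and 2.54 FPKM in control and 2.05 and 1.69 at E18. By itself it was not called (log2 difference −0.46 ± 0.203, adjusted p = 0.0874 in limma). The other, numbered between Fbxo4 and Nipbl on the minus strand, had 3.58 and 4.25 FPKM in control and 0.505 and 1.11 at E18 (−1.46 ± 0.303, adjusted p = 0.00545 in limma). GENCODE annotates 2 minus-strand noncoding genes inside Lifr, Gm62219 and Gm62217, over 4651 and 6750 bases. The named library kit keeps no record of strand, and reads of Lifr and of these genes cannot be told apart, and the call on Lifr rests on the sum of both loci. This second locus made up 51.5 and 62.6% of the sum in control, 63.5 and 47.0% in miR-1247 and 19.7 and 39.6% in E18 libraries.

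Il6st, which encodes gp130, the signalling chain shared by the interleukin-6 family, was also lower at E18. It had 18.1 and 18.4 FPKM in control, 19.1 and 18.7 in miR-1247 and 12.2 and 12.9 in E18 libraries (chr13:112600604-112646620, plus strand). The E18 libraries were below all 4 adult libraries. Its log2 difference from control was −0.50 ± 0.0961 (limma, adjusted p = 0.00314), with a control mean 1.45 times that of E18. Within a library, where scaling cancels, the ratio of Il6st to Lifr was 2.61 and 2.70 in control, 2.09 and 2.75 in miR-1247 and 4.78 and 4.60 at E18. The Lifr sum was thus lower relative to Il6st in both E18 libraries than in any adult library. With 2 libraries against 2, the smallest two-sided p of an exact permutation test is 0.333, so the ratios are given without a test.

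The kinase genes parted. Jak2, which also serves growth hormone and erythropoietin receptors, had 9.62 and 9.40 FPKM in control, 12.7 and 14.1 in miR-1247 and 22.2 and 19.6 in E18 libraries (chr19:29229031-29290993, plus strand). The groups did not overlap, and both E18 libraries were above every adult library. E18 exceeded control by 1.05 ± 0.118 on the log2 scale (limma, adjusted p = 0.000247), a ratio of means of 2.19. Jak1, the kinase that gp130 depends on most, had 38.7 and 39.5 FPKM in control, 34.2 and 37.0 in miR-1247 and 43.4 and 42.8 in E18 libraries. Its E18 difference from control was 0.14 ± 0.0745 (95% interval −0.04 to 0.32, limma adjusted p = 0.138) and was not called, and it was −0.014 under the scaling to a median ratio of 1. Jak1 shares its deposited span (chr4:100926180-101122479) with Raver2, a gene on the opposite strand that overlaps it by 1982 bases. The ratio of Jak1 to Jak2 was 4.02 and 4.20 in control, 2.70 and 2.62 in miR-1247 and 1.96 and 2.19 at E18. The libraries of the 3 groups did not overlap in it. Levels of single genes did not overlap in 57.7% of tested genes between miR-1247 and control, and in 85.5% between E18 and control. How often the ratios of other gene pairs separate the groups was not computed.

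Among the STAT genes, Stat5b, which acts downstream of growth hormone and cytokine receptors, was lower at E18. It had 15.9 and 18.5 FPKM in control, 14.4 and 14.3 in miR-1247 and 7.04 and 4.93 in E18 libraries (chr11:100671557-100741550, minus strand). All adult libraries were above 14 FPKM and both E18 libraries under 8. The log2 difference from control was −1.39 ± 0.172 (limma, adjusted p = 0.000396), with a control mean 2.87 times that of E18. Stat3, the main STAT of gp130 receptors, had 9.55 and 9.86 FPKM in control, 13.0 and 14.8 in miR-1247 and 9.07 and 7.60 in E18 libraries. Its E18 difference from control was −0.20 ± 0.137 (95% interval −0.53 to 0.13, limma adjusted p = 0.228), which was not called. The deposited Stat3 span (chr11:100750177-100830401) also covers Stat5a, which overlaps Stat3 by 142 bases on the other strand and was not analysed here. The ratio of Stat3 to Stat5b was 0.602 and 0.534 in control, 0.902 and 1.03 in miR-1247 and 1.29 and 1.54 at E18. Stat5b was the more abundant of the pair in both control libraries, and Stat3 in both E18 libraries.

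The Socs genes moved in opposite directions. Socs2, a feedback inhibitor best known for restraining growth hormone signalling, had 3.48 and 6.45 FPKM in control, 5.93 and 9.83 in miR-1247 and 21.0 and 19.2 in E18 libraries (chr10:95247352-95252719, minus strand). The control and miR-1247 libraries overlapped, and both E18 libraries stood well above them. E18 exceeded control by 1.87 ± 0.295 on the log2 scale (limma, adjusted p = 0.00132), a ratio of means of 4.05. Socs7, an inhibitor found in brain that also binds adaptor proteins, had 22.8 and 21.6 FPKM in control, 25.5 and 25.1 in miR-1247 and 16.2 and 15.2 in E18 libraries (chr11:97253138-97289368, plus strand). The E18 libraries were the lowest, by −0.47 ± 0.0908 from control (limma, adjusted p = 0.00330). The ratio of Socs7 to Socs2 was 6.54 and 3.35 in control, 4.30 and 2.55 in miR-1247 and 0.773 and 0.793 at E18. Socs7 was therefore above Socs2 in every adult library and below it in both E18 libraries.

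**Figure D4:**
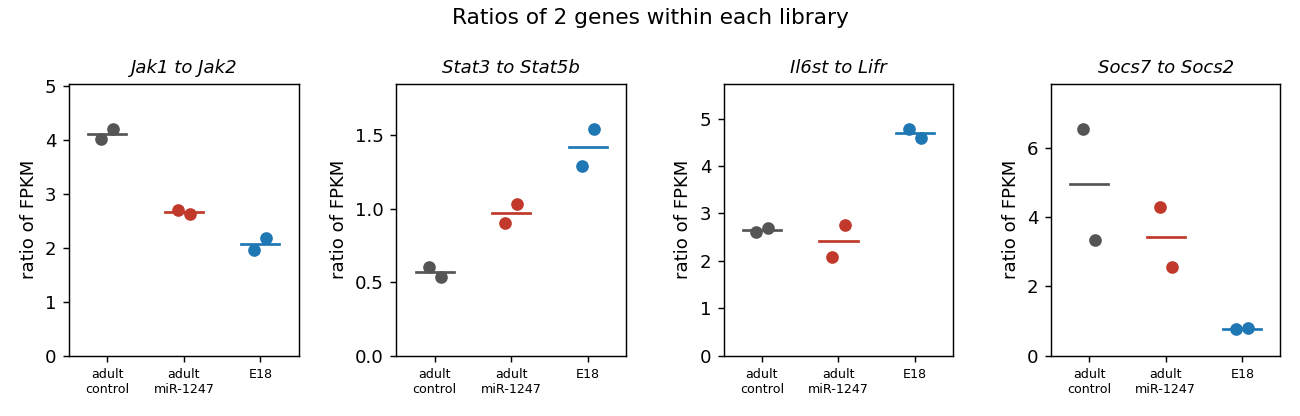
Ratios of FPKM of gene pairs within each library, with a bar at the group mean. Jak1 to Jak2 and Stat3 to Stat5b separate the 3 groups without overlap. For Il6st to Lifr and Socs7 to Socs2 the adult groups overlap and E18 stands apart. How often other gene pairs do so was not computed.

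Between miR-1247 and control, limma called 0 of the 8 genes, beside 9.75% of all tested genes (3.53% higher, 6.22% lower). An unadjusted p under 0.05 was reached by 2 of 8, Jak2 and Stat3, beside 28.6% of all tested genes. The share of calls that were higher depended on scaling, with 36.2% as fitted, 46.7% with the median ratio set to 1 and 15.0% with library totals made equal. The median log2 difference of the 8 genes was 0.18, and −0.03 over all tested genes. In 6 of the 8 genes the miR-1247 and control libraries did not overlap, beside 57.7% of tested genes. For Jak2 the log2 difference was 0.45 ± 0.118 (95% interval 0.17 to 0.74, unadjusted p = 0.00716 and adjusted p = 0.0604 in limma), with means of 13.4 ± 1.03 against 9.51 ± 0.153 FPKM. With the median ratio set to 1 it was 0.49 with an adjusted p of 0.0499, just under the threshold. For Stat3 it was 0.47 ± 0.137 (95% interval 0.14 to 0.80, unadjusted p = 0.0122 and adjusted p = 0.0804 in limma), with means of 13.9 ± 1.27 against 9.70 ± 0.215 FPKM. Both miR-1247 libraries were above both control libraries for either gene, and the adjusted test did not separate them. The summed Müller glia and astrocyte markers were 1063.2 to 1409.4 FPKM in control and 1713.0 to 1825.4 in miR-1247 libraries, of which Glul had 463 and 122 FPKM in control and 795 and 632 in miR-1247. Aldoc, of the same list, had means of 521 and 522 FPKM in control and miR-1247. As given above, RGC and rod marker sums were lower in miR-1247 libraries than in control, and amacrine and bipolar sums higher. The part of any of these markers in the Jak2 and Stat3 values was not tested.

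The other 6 genes had intervals that reach both sides of 0. For Socs2 the 95% interval of the log2 difference was −0.12 to 1.29, the widest of the 8, with overlapping libraries. It was −0.24 to 0.60 for Lifr, −0.18 to 0.28 for Il6st and −0.31 to 0.05 for Jak1. The interval for Stat5b was −0.65 to 0.17, and that for Socs7, the gene with the seed match, −0.04 to 0.40.

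Between E18 and miR-1247 libraries all 8 genes were called, 3 higher at E18 (Jak1, Jak2, Socs2) and 5 lower (Lifr, Il6st, Stat3, Stat5b, Socs7), beside 69.9% of tested genes (41.5% higher, 28.4% lower). None of the 8 overlapped, as was true of 86.3% of tested genes. The median log2 difference of the 8 was −0.60, and 0.19 over all tested genes. Stat3 was lower at E18 by −0.67 ± 0.137 (limma, adjusted p = 0.00435), a call that it did not have against control. Socs7 was lower by −0.65 ± 0.0908 (adjusted p = 0.000718 in limma), Stat5b by −1.15 ± 0.172 (adjusted p = 0.000986) and Jak2 higher by 0.60 ± 0.118 (adjusted p = 0.00359). Calls on Jak1 and Socs2 depended on single libraries. For Jak1 the log2 difference was 0.27 ± 0.0745 (limma, adjusted p = 0.0155), and its adjusted p was 0.0792 without miR-1247 replicate 1, 0.0591 without E18 replicate 1 and 0.351 with the median ratio set to 1. For Socs2 it was 1.28 ± 0.295 (limma, adjusted p = 0.00735), with an adjusted p of 0.0619 without E18 replicate 1.

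Other genes of the pathway were taken from lists of 112 names, of which 66 were measured and 63 could be counted, after joining names that share a locus and leaving out Prlr, which was under the level tested, and Il11ra1, which was listed at 0 in adults. At E18, 27 of the 63 were higher than in control and 10 lower, beside 40.2% and 29.8% of all tested genes. The share that was higher is thus close to the background, and the share that was lower is under it. The median log2 difference was 0.19, beside 0.16 for all tested genes, and the counts per list that follow have the same background. None of the 12 ligand genes listed, Cntf, Lif and Il6 among them, was analysed here. Of 7 other receptor genes, 2 were higher at E18 and none lower. Ifngr2, a chain of the interferon gamma receptor, had 10.6 and 11.2 FPKM in control and 26.5 and 31.4 at E18 (log2 difference 1.33 ± 0.118). Ifnar1, a chain of the type I interferon receptor, had 13.2 and 12.5 FPKM in control and 20.5 and 19.7 at E18 (0.61 ± 0.105, limma adjusted p = 0.00202). Stat2, a STAT factor of the interferon response, had 9.99 and 11.5 FPKM in control and 15.2 and 16.9 at E18 and was higher (0.54 ± 0.125, limma adjusted p = 0.00735, and 0.0542 without E18 replicate 2).

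Of 9 other Socs genes and ubiquitin ligase partners, 1 was lower and 1 higher at E18. Socs5, an inhibitor of cytokine and growth factor receptors, had 33.4 and 37.2 FPKM in control, 30.4 and 29.6 in miR-1247 and 8.03 and 7.69 in E18 libraries (log2 difference −2.03 ± 0.0970, limma adjusted p = 5.14e-06). Its control mean was 4.49 times that of E18. Socs5 had a higher level than Socs2 or Socs7 in every adult library, and a lower one in both E18 libraries. Elob, which links the SOCS box to the ligase, had 87.3 and 91.8 FPKM in control and 179 and 214 at E18 (1.12 ± 0.0920). Socs4, Socs6 and Cish, another feedback inhibitor of STAT5, had group means of 2.93, 5.37 and 3.76 FPKM in control and 3.42, 5.33 and 2.73 at E18, and none was called.

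Of 11 PIAS proteins, phosphatases and other inhibitors, 6 were higher and 2 lower at E18, beside 40.2% and 29.8% of all tested genes. Calls on Cbl and Ptpn2, both higher, and on Pias1 and Ptpn11, the 2 lower, were lost without some single libraries. Under 7 alternatives of other kinds, Cbl kept its call in 2 and Pias1 in 5. The largest difference was in Ptpn1, a phosphatase that acts on JAK2, with 7.75 and 8.28 FPKM in control and 26.6 and 27.2 at E18 (1.63 ± 0.141, limma adjusted p = 7.39e-05). Next were Ptprd, a receptor phosphatase of neurons, with 18.3 and 16.3 against 40.1 and 38.8 FPKM (1.15 ± 0.0968), and Pias2 (0.62 ± 0.142), whose adjusted p in limma was 0.0544 without E18 replicate 2. Of 19 genes of adaptors and of the parallel Ras, MAP kinase and PI3 kinase branches, 8 were higher and 2 lower. Of the 8, Stam2 and Pik3ca lost the call without some single libraries. Map2k1, a kinase of the MAP kinase cascade, was lower, with 103 and 92.7 FPKM in control and 28.8 and 25.5 at E18 (log2 difference −1.81 ± 0.0842). Gab2, a docking adaptor, was higher at E18 (1.34 ± 0.0992). Mapk3, a MAP kinase gene, had 71.0 and 79.6 FPKM in control and 78.3 and 82.1 at E18 and was not called.

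Genes known as targets of STAT3 in other cells, which many other factors also control, numbered 15. At E18, 9 were higher and 4 lower, beside 40.2% and 29.8% of all tested genes. The median log2 difference of the 15 was 0.77, beside 0.16 for all tested genes. Among the 9, Fos lost the call without any 1 library and kept it in 2 of 7 alternatives of other kinds. Klf6 lost it without E18 replicate 2 and Vegfa without adult control replicate 2. Cdkn1a, a cell cycle inhibitor, had 1.72 and 2.62 FPKM in control, 3.35 and 4.84 in miR-1247 and 34.9 and 33.1 in E18 libraries (3.48 ± 0.207, limma adjusted p = 1.37e-05). Myc, a growth-promoting transcription factor, had 0.703 and 1.72 FPKM in control and 13.2 and 12.9 at E18 (log2 difference 2.71 ± 0.246). Nfil3, a transcription factor of the clock and of immune cells, had 10.3 and 4.70 FPKM in control and 29.1 and 35.0 at E18 (2.03 ± 0.300). The 4 lower genes were Junb, with 35.1 and 38.3 against 11.4 and 9.33 FPKM (log2 difference −1.73 ± 0.135), the kinase gene Pim2 and the survival genes Bcl2l1 and Bcl2. Mcl1, another survival gene, was higher at E18, with 24.3 and 24.9 against 45.5 and 46.6 FPKM (0.88 ± 0.0855), so the survival genes of this list did not move together.

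**Figure D5:**
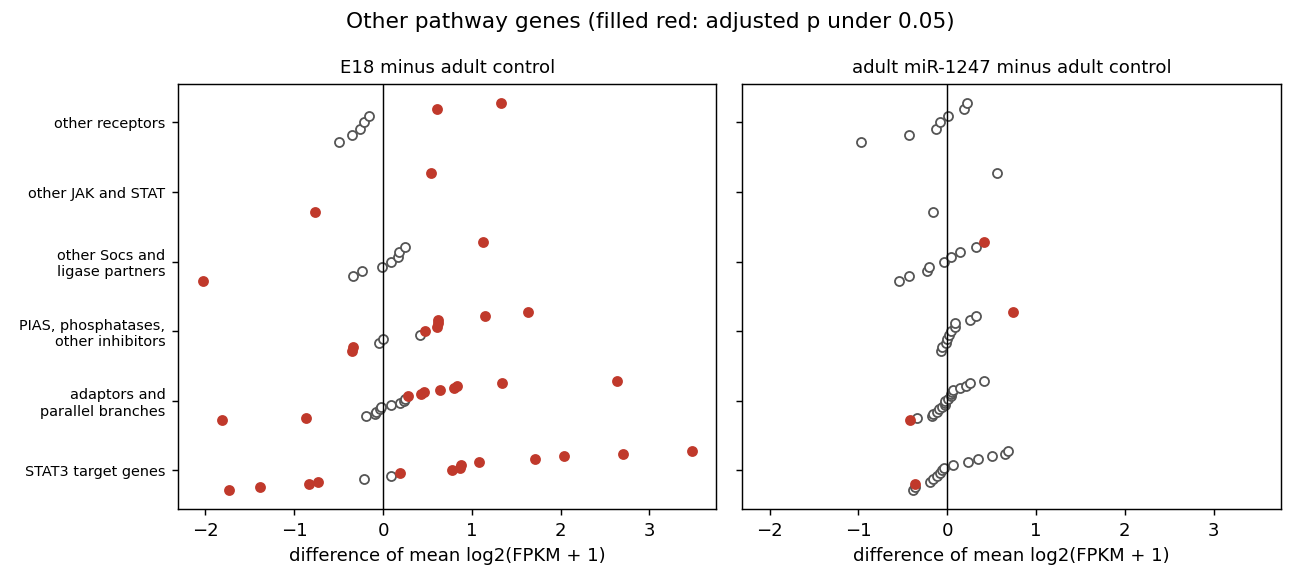
Differences of mean log2(FPKM + 1) of the other pathway genes by class, 1 point per gene, with filled red points for genes with an adjusted p under 0.05 in limma. Points spread from −2.03 (Socs5) to 3.48 (Cdkn1a) in E18 against control, and 4 of 63 genes are filled in miR-1247 against control.

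Between miR-1247 and control, 2 of the 63 were higher and 2 lower, and 11 of 63 had an unadjusted p under 0.05 beside 28.6% of all tested genes. Dusp22, a phosphatase that acts on STAT3, had 10.3 and 14.1 FPKM in control and 22.3 and 19.2 in miR-1247 libraries (log2 difference 0.74 ± 0.162, limma adjusted p = 0.0408). Rbx1, a ubiquitin ligase subunit, was higher by 0.42 ± 0.0989 (adjusted p = 0.0475), while Fos was lower by −0.36 ± 0.0704 (adjusted p = 0.0314). Leaving out any 1 of the 6 libraries in turn, Dusp22 and Fos lost the call each time, and Rbx1 kept it in 1 of 6 fits. All of these calls were also lost without a variance trend, with the 4 libraries of these groups alone and with a replicate block. Socs5 differed by −0.23 ± 0.0970 (adjusted p = 0.185) and was not called. Ptpn11, a phosphatase that binds gp130, had a match to bases 2 to 8 of miR-1247-5p in its 3′ UTR. It was the 1 such gene of 65 listed pathway genes, beside 3.27% of UTRs of tested genes. Only this kind of match was counted for the listed genes. Ptpn11 had 32.5 and 32.4 FPKM in control and 32.2 and 34.9 in miR-1247 libraries.

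Against miR-1247 libraries, E18 was higher in 27 of the 63 genes and lower in 12, beside 41.5% and 28.4% of all tested genes, with a median of 0.30 beside 0.19 for all tested genes. Socs5 was lower (−1.81 ± 0.0970, limma adjusted p = 8.63e-06), and Stat2 was higher (0.69 ± 0.125). Dusp22 was lower at E18 than in miR-1247 libraries (−0.78 ± 0.162, limma adjusted p = 0.00466). Il4ra, an interleukin 4 receptor chain, was higher (0.82 ± 0.250, limma adjusted p = 0.0236), a call lost without miR-1247 replicate 1 or E18 replicate 1, with an adjusted p of up to 0.126.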

How the data were processed

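The deposited table holds FPKM values of 6 libraries. Per the submitters' processing notes, the authors mapped reads to mm39 with HISAT2 and computed FPKM with Cufflinks and Cuffdiff, whose versions are not given in the sources used here. Counts are not part of the table, so depth and counting error are unknown. The 1e-05 added to each deposited entry was subtracted, loci of 1 gene name were summed, and names with the same loci were taken once. Log2(FPKM + 1) of the 9987 genes with a mean of at least 1 FPKM was fitted with 3 group means over all 6 libraries in limma 3.58.1 (R 4.3.3, variance trend), with two-sided p-values adjusted by Benjamini-Hochberg over all of them and called at 0.05. On simulated data of the miR-1247 comparison with 9987 genes, 200 were changed 2-fold on the scale of FPKM + 1. Of these 200, 100 were called, and 1 unchanged gene was called. Fewer genes were changed there than the 974 called in the data, so the share recovered does not measure the power of the real comparison. Noise was drawn for each gene on its own, with no effect shared by genes of a library. The 1 unchanged gene called therefore does not measure false calls in the real comparison. All genes chosen by name were described, and of the other pathway lists up to 3 called genes with the largest difference per list and comparison, plus other STAT and Socs genes. Genes named beyond that rule were chosen after their values were seen. They were Pim2, Bcl2l1, Bcl2, Junb, Mcl1, Mapk3, Ptpn11, Cbl, Ptpn2, Pias1, Stam2, Pik3ca, Klf6, Vegfa and the genes around Cntfr. Some genes that the rule names are not reported here. Members and lists were chosen with earlier results of these data known. Alternatives were other pseudocounts, filters, scalings, models and loci, and leaving out each library. Tables and plots used Python 3.11.15, pandas 2.3.3, NumPy 2.4.6 and Matplotlib 3.10.9. Sequences came from RefSeq (GRCm38.p6) and GENCODE on GRCm39.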

Additional observations from a re-analysis of the deposited data

How the results depend on the processing

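The 6 calls between E18 and control stood under all 14 alternatives, except that 1 of the 2 Lifr loci was not called when tested alone, and of the 8 calls between E18 and miR-1247 between 6 and 8 did. Between miR-1247 and control, 1 gene of the 8 (Jak2) was called with the median ratio set to 1, and none under the 13 others. Signs changed for uncalled differences alone: Jak1 between E18 and control was −0.014 with the median ratio set to 1, Il6st between miR-1247 and control was −0.048 with equal totals, and Lifr there ran from −0.008 without miR-1247 replicate 1 to 0.37 without miR-1247 replicate 2. Over all tested genes, 974 were called between miR-1247 and control, 343 without a variance trend, 347 with the 4 libraries of these groups alone, and 121 to 242 when 1 library was left out, fits that have fewer libraries. With a replicate block 584 were called. The labels do not say whether same-numbered libraries were prepared together. Deviations of same-numbered libraries correlated at −0.00812, −0.00175 and 0.00353 across genes, so no effect shared by replicate number was seen in the values. The replicate block changed no call on the 8 genes. Counts between E18 and control ran from 5930 to 7108 (6998 as fitted), and between E18 and miR-1247 from 5941 to 7104 (6979). Depth in reads is unknown, so no limit from counting can be given for weak genes such as Socs2 and Lifr.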
